A study of Mus musculus with 4 samples.

Results

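Cycling CD8 T cells were the liver CD8 T cells in which the genes of cell division were found. They were chosen by UMI counts, a UMI (unique molecular identifier) marking 1 captured RNA molecule. A member held at least 1 UMI of *Cd3d*, *Cd3e* or *Cd3g*, at least 1 of *Cd8a* or *Cd8b1*, none of *Cd4*, at most 2 of the B cell genes *Cd79a*, *Cd79b* and *Ms4a1*, at most 10% of its UMIs from mitochondrial genes, and at least 3 of the 7 genes *Mki67*, *Top2a*, *Birc5*, *Cdk1*, *Ccnb2*, *Ube2c* and *Tpx2*. Of 9300 cell barcodes in 4 libraries, 950 were CD8 T cells by the first conditions and 398 of these were cycling. The members came from 1 cell of the Naïve library, 189 of ConA+Veh, 105 of ConA+TCDD and 103 of ConA+FICZ. The other 552 CD8 T cells, with 0 to 2 of the 7 genes, are called non-cycling, although a shallow cell can miss genes that it expresses.

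All mice were C57BL/6, 8 to 10 weeks old. The Naïve mice had no ConA, and whether they were given its saline vehicle is not stated for this library. The other 3 groups received concanavalin A (ConA), a plant lectin that activates T cells and causes hepatitis, 24 hours before the liver was taken. ConA+Veh mice were given ConA and then corn oil vehicle, ConA+TCDD mice ConA and then TCDD, a dioxin that binds the aryl hydrocarbon receptor (AhR), and ConA+FICZ mice ConA and then FICZ, a tryptophan-derived ligand of the same receptor. What was done to the ConA+FICZ mice rests on the labels alone, and the dose, vehicle and time of FICZ are not given in the sources used here. The study asked how AhR activation changes the immune cells of the inflamed liver. Mononuclear cells of the whole liver were enriched on a density gradient, with no sort for T cells described, and the number of mice behind a library is not given in the sources used here. Each group had 1 library, with 5952445 UMIs in 2086 barcodes for Naïve, 19252211 in 2779 for ConA+Veh, 12077209 in 1880 for ConA+TCDD and 16017797 in 2555 for ConA+FICZ. With 1 library per condition no test between conditions could be made. All intervals are at 95% and cover counting error only, not the difference between mice. Intervals of genes treat each UMI as independent, so they also leave out the spread between cells. Intervals of ratios of shares treat the cell numbers as Poisson counts and are too wide where shares are large.

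A resting CD8 T cell typically divides after its receptor has been engaged. It then grows, copies its DNA in S phase with the MCM helicase and the polymerases, and separates the copies in mitosis under the kinase Cdk1 and its cyclins. Genes of S phase are switched on by E2F factors, and genes of G2 and mitosis by a complex that binds the element called CHR, often with the factor NF-Y on CCAAT boxes nearby. *Mki67* encodes the Ki-67 protein that coats chromosomes, *Top2a* a topoisomerase that untangles them, *Birc5* survivin of the chromosomal passenger complex, *Cdk1* the mitotic kinase, *Ccnb2* its partner cyclin B2, *Ube2c* an enzyme that marks mitotic proteins for destruction, and *Tpx2* a spindle assembly factor.

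Promoters of cycle genes show these elements. The stretches of 250 bases before the start of *Ccnb2* (chr9:70421555-70421804, minus strand), *Cdk1* (chr10:69352913-69353162, minus strand) and *Mcm5* (chr8:75109259-75109508, plus strand), from RefSeq on GRCm38.p6, are printed 5′ to 3′ because they hold the CHR and CCAAT pattern, both patterns and the E2F pattern. Capitals mark E2F letters (TTTGGCGC or TTTCGCGC), CHR letters (TTTGAA) and CCAAT, each on either strand.
Ccnb2: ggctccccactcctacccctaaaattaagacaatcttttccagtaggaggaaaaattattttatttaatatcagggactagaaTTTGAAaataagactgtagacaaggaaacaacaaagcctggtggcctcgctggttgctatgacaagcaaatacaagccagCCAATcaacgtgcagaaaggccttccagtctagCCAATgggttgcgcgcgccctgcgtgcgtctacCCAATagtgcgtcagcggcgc
Cdk1: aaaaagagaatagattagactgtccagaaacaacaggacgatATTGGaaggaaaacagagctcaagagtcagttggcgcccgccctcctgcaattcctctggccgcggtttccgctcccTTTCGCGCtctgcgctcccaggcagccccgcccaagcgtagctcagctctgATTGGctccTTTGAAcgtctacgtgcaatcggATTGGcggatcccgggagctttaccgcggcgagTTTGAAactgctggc
Mcm5: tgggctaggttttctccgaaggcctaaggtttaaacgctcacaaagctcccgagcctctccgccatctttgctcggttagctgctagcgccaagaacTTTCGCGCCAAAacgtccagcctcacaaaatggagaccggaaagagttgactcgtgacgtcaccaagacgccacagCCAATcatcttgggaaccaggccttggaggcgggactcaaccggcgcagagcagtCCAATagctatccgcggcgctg

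*Ccnb2* held a CHR starting 167 bases before the start and CCAAT boxes at 87, 54 and 21 bases before it, with a further CHR match just after the start, past the stretch printed. *Cdk1* held an E2F match and a pair of CHR matches. *Mcm5*, a subunit of the MCM helicase, held overlapping E2F matches in opposite orientation and no CHR. Over windows of 300 bases (the 250 bases and the next 50), 36 of 53 promoters of a list of mitosis genes held CHR (67.9%) and 40 held CCAAT (75.5%), with 49 of the 56 genes matched in RefSeq. Of 40 promoters of the DNA replication list, 5 held CHR (12.5%), 24 CCAAT (60%) and 12 E2F (30%), against 1 of 53 mitosis promoters with E2F (1.89%), and 33 of the 40 replication genes were matched. Among all 32851 promoters of 27025 genes the shares were 17.9% for CHR, 37.4% for CCAAT and 0.813% for E2F. For the genes of the rule, 6 of 7 were matched, and 5 of their 6 promoters held both CHR and CCAAT, which 6.95% of all promoters did. A match describes letters and is not a measured binding site.

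The rule asked for a Cd3 and a CD8 gene, so the shares of members with these genes describe the choice and do not test it. *Cd3e*, a chain of the T cell receptor complex, was found in 96.8% of members in ConA+Veh, 99.0% in ConA+TCDD and 97.1% in ConA+FICZ. *Cd8a* was found in 97.9%, 98.1% and 99.0%, and both CD8 chains were found in 93.7%, 95.2% and 93.2%. *Cd8b1* was at 678, 663 and 682 counts per 1000000 UMIs (CPM, over the summed cells of a library). Among T cell genes that the rule did not use, *Trac*, the constant region of the alpha chain, stood at 244, 261 and 240 CPM, *Lck*, the kinase of the receptor complex, at 346, 294 and 386 CPM, and the adhesion molecule *Cd2* at 140.5, 103 and 131 CPM. A list of 14 T cell genes, 5 of them genes of the rule, summed to 4576, 4199 and 4581 CPM. Of its 11 genes with enough UMIs, none differed by 1.5-fold or more between any 2 of the 3 ConA libraries, where between 1.11% and 2.98% of all genes did so in a given pair and direction. A list of CD4 and regulatory T cell genes, mostly *Ctla4*, summed to 367, 486 and 274 CPM (450, 447 and 438 in non-cycling cells). A list of NKT cell genes, mostly *Icos*, summed to 116, 126 and 80.9 CPM (173, 89.3 and 109 in non-cycling cells). Other defining genes of neighbouring lineages were low. *Cd4* was at 0 by the rule, *Trdc* of gamma delta T cells had 10, 6 and 1 UMIs in all, and a list of NK cell genes summed to 43.8, 48.8 and 49.0 CPM, against 645, 172 and 126 CPM in non-cycling CD8 T cells.

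Members were large in RNA. A member held a median of 18238 UMIs in ConA+Veh (848 to 51449), 20897 in ConA+TCDD (3990 to 50266) and 23287 in ConA+FICZ (3335 to 55966), and the Naïve member held 22340. Non-cycling CD8 T cells of the same ConA libraries had medians of 6963, 6826.5 and 8778.5, so that members held 2.62, 3.06 and 2.65 times as many. The median number of genes was 3567, 3834 and 4107 in members and 1988, 1886 and 2106.5 in non-cycling cells. Members were 6.80%, 5.59% and 4.03% of the barcodes of their libraries but 19.7%, 19.0% and 15.7% of the UMIs. The depth and the rule are linked, since a deeper cell shows more of the 7 genes.

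Cycling cells were almost absent from the Naïve liver and common after ConA. As the rule stands, 1 of 166 CD8 T cells cycled in Naïve (0.602%, 0.0153 to 3.31%), 189 of 318 in ConA+Veh (59.4%, 53.8 to 64.9%), 105 of 239 in ConA+TCDD (43.9%, 37.5 to 50.5%) and 103 of 227 in ConA+FICZ (45.4%, 38.8 to 52.1%). The share of ConA+TCDD over ConA+Veh gave a log2 ratio of -0.44 (-0.79 to -0.08), that of ConA+FICZ over ConA+Veh -0.39 (-0.75 to -0.04), and that of ConA+FICZ over ConA+TCDD 0.05 (-0.36 to 0.45). The intervals of the first pair of ratios lay below 0 and that of the last crossed it.

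Because depth can affect these shares, each cell was also thinned at random to 1000 UMIs. The shares were then 1 of 163 in Naïve (0.613%), 35 of 315 in ConA+Veh (11.1%, 7.86 to 15.1%), 23 of 236 in ConA+TCDD (9.75%, 6.28 to 14.3%) and 16 of 226 in ConA+FICZ (7.08%, 4.10 to 11.2%). ConA+Veh stood above Naïve by a log2 ratio of 4.18 (1.61 to 9.52). The 3 ConA libraries could not be told apart at this depth, since the log2 ratio of ConA+TCDD over ConA+Veh was -0.19 (-1.02 to 0.61) and that of ConA+FICZ over ConA+Veh was -0.65 (-1.60 to 0.24). At 2000 UMIs the shares of the ConA libraries were 29.9%, 21.6% and 18.7%. The ratios were -0.47 (-1.002 to 0.04) and -0.68 (-1.25 to -0.13), so that the first interval crossed 0. It is too wide for shares of this size, so its crossing of 0 does not decide whether these shares differ. At 5000 UMIs, a depth chosen after seeing the data that left out 49, 36 and 42 shallower cells, the shares were 57.2%, 42.4% and 41.6% and the ratios -0.43 (-0.83 to -0.04) and -0.46 (-0.87 to -0.06). ConA+Veh was highest at every depth tried. Summed over all CD8 T cells of a library, cycling or not, the 7 genes stood at 74.7 CPM in Naïve, 1587 in ConA+Veh, 1279 in ConA+TCDD and 1166 in ConA+FICZ. Over the same cells the mitosis list summed to 627, 2907, 2561 and 2575 CPM and the replication list to 1175, 4239, 4079 and 4367 CPM, so that the replication sum was highest in ConA+FICZ. Fewer cycling cells and less RNA of these genes per cell cannot be told apart in such sums.

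Other lymphocytes also cycled after ConA. By the same 7 genes, unthinned, CD4 T cells (the same conditions with *Cd4* in place of the CD8 genes) cycled in 3 of 80 cells of Naïve (3.75%), 47 of 94 of ConA+Veh (50%, 39.5 to 60.5%), 38 of 75 of ConA+TCDD (50.7%, 38.9 to 62.4%) and 21 of 77 of ConA+FICZ (27.3%, 17.7 to 38.6%). NK-type cells, with no Cd3 UMI and at least 2 UMIs of *Ncr1*, *Klre1* and *Klrb1c*, gave 0.935%, 7.78%, 9.92% and 5.30%, and B-type cells, with at least 3 UMIs of the B cell genes, 0.387%, 7.91%, 9.03% and 6.92%. Unthinned, ConA+TCDD lay below ConA+Veh in CD8 T cells and not in these other types. In CD4 T cells the log2 ratio of ConA+TCDD over ConA+Veh was 0.02 unthinned and -0.10 at 1000 UMIs. It was -1.01 at 2000 (-2.17 to 0.04) and -0.30 at 5000, and each of these intervals crossed 0. After thinning to 2000 UMIs, 28 of 92 CD4 T cells of ConA+Veh cycled (30.4%), against 11 of 73 of ConA+TCDD (15.1%). The interval is too wide for shares of this size, so its crossing of 0 does not decide whether the CD4 T cell shares differ. In ConA+Veh and ConA+TCDD, the shares of NK-type cells were 1.28% and 4.92% at 1000 UMIs and 4.80% and 10.5% at 2000, and those of B-type cells 0.946% and 0.351% at 1000 and 3.45% and 3.57% at 2000. The intervals of all 4 ratios crossed 0. The difference between types was not tested, and NK-type and B-type cells were shallower, with medians of 2772 and 4714 UMIs in ConA+Veh.

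The number of the 7 genes found spread over the whole range after ConA. In Naïve, 159 of 166 CD8 T cells held none of them, 6 held 1 and 1 held all 7. In ConA+Veh, 79 cells held none and 70 held all 7, with 26, 24, 15, 23, 34 and 47 cells at 1 to 6. In ConA+TCDD the cells at 0 to 7 numbered 101, 23, 10, 7, 10, 16, 36 and 36, and in ConA+FICZ 85, 25, 14, 18, 14, 15, 16 and 40. All 3 ConA libraries were thus highest at none, with a second peak at 6 or 7 genes and fewer cells between. Cells just outside the rule, at 2 genes, were no shallower than those just inside it, at 3, and held less of the mitosis and replication lists in each ConA library, values that move with the genes by which the cells were split. Their median UMIs were 10034.5 and 7613 in ConA+Veh. In ConA+TCDD they were 10377 and 10331, and in ConA+FICZ 18714.5 and 15473.5. Replication genes summed to 3264 CPM at 2 genes and 5021 at 3 in ConA+Veh, to 3974 and 4665 in ConA+TCDD, and to 4366 and 5180 in ConA+FICZ. Mitosis genes summed to 944 and 1857, 1219 and 2099, and 1163 and 1444 CPM.

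**Figure D1:**
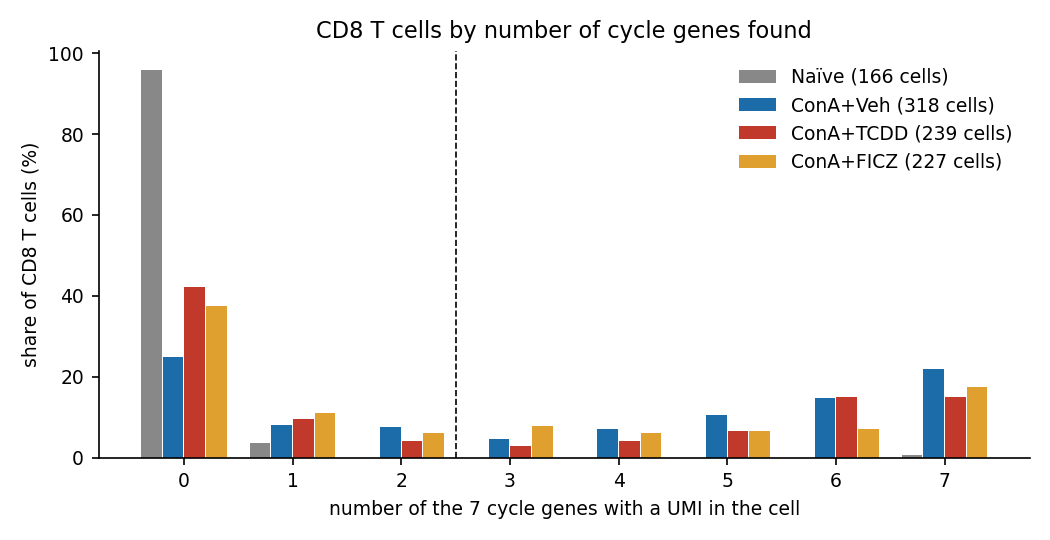
Number of the 7 cycle genes found in each CD8 T cell (horizontal axis) against the percent of the CD8 T cells of a library (vertical axis), for the 4 libraries. Naïve cells sit at 0 except for 6 cells at 1 and 1 cell at 7, and the ConA libraries have high values at 0 and again at 6 or 7.

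Members differed from cell to cell in replication and mitosis genes. Per 10000 UMIs of a cell, the 40 genes of the replication list gave a median of 51.2 UMIs in ConA+Veh (quartiles 39.9 and 57.6), 50.2 in ConA+TCDD (43.6 and 57.4) and 54.3 in ConA+FICZ (47.2 and 59.7). The 56 genes of the mitosis list gave 32.6 (22.5 and 43.3), 31.9 (25.5 and 41.8) and 27.6 (18.6 and 47.1). Single cells reached 85.8, 66.5 and 87.9 mitosis UMIs per 10000. Across cells, the lists had Spearman correlations of -0.11, -0.18 and -0.17 over 189, 105 and 103 cells, a description in which both lists share each cell's total.

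**Figure D2:**
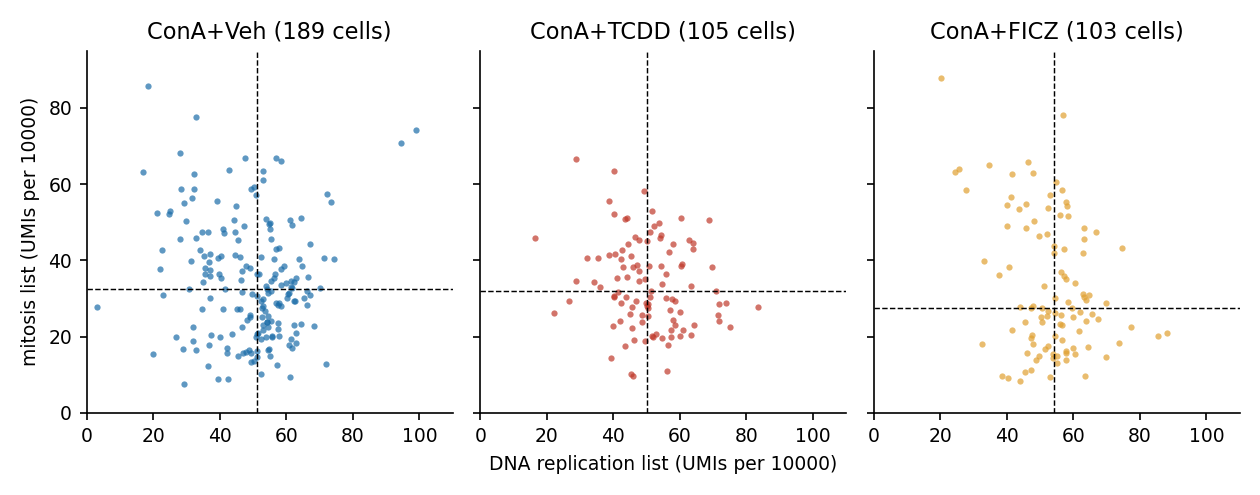
Each point is 1 cycling CD8 T cell, with UMIs of the replication list per 10000 UMIs on the horizontal axis and of the mitosis list on the vertical axis, 1 panel per ConA library. The clouds of the 3 libraries overlap, around medians (dashed lines) of 51.2 and 32.6 for ConA+Veh, 50.2 and 31.9 for ConA+TCDD, and 54.3 and 27.6 for ConA+FICZ.

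The genes of the rule were not all found equally often. *Top2a* was found in 96.8%, 99.0% and 98.1% of members of ConA+Veh, ConA+TCDD and ConA+FICZ, and *Birc5* in 95.8%, 94.3% and 89.3%. *Mki67* was found in 93.7%, 95.2% and 84.5%, *Cdk1* in 75.1%, 83.8% and 86.4%, *Ube2c* in 78.8%, 87.6% and 69.9%, and *Tpx2* in 68.8%, 70.5% and 67.0%. *Ccnb2* was the least frequent of the 7 in each library, in 61.9%, 49.5% and 49.5%.

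Members were set against the non-cycling CD8 T cells of the same libraries. The rule chose this contrast, and depth differs across it, so its values are a description. Of 3524 genes that reached 100 UMIs in the CD8 T cells of each ConA library, 119 (3.38%) were at least 2-fold higher in members in all 3 ConA libraries and 3 (0.0851%) at least 2-fold lower. A gene could reach that minimum through the members alone, and then had to be higher in them. Outside the rule, the genes that ranked highest by the lowest of their 3 ratios were *Nusap1*, a spindle protein, with log2 ratios of 5.52, 6.29 and 6.62 in ConA+Veh, ConA+TCDD and ConA+FICZ, *Cdca3*, a trigger of mitotic entry, with 4.96, 5.92 and 4.91, the histone *Hist1h2ap*, with 4.50, 7.94 and 4.95, and *Cenpf* of the kinetochore, with 4.20, 5.59 and 5.99. Further down the same order, *Pclaf*, a PCNA partner, had 4.01, 4.27 and 4.74, cyclin A2 (*Ccna2*) 3.84, 4.46 and 5.44, the ribonucleotide reductase subunit *Rrm2* 3.83, 4.63 and 3.84, and the kinase *Aurkb* 3.97, 3.56 and 4.05. Non-cycling cells of the 3 ConA libraries together held 4 UMIs of *Nusap1*, 11 of *Cdca3*, 26 of *Hist1h2ap* and 11 of *Cenpf*. Ratios over so few UMIs are imprecise. Mitosis genes summed to 3528, 3404 and 3511 CPM in members and 643, 641 and 715 in non-cycling cells. Replication genes summed to 4856, 5067 and 5238 against 1989, 1829 and 2636 CPM, log2 ratios of 1.29, 1.47 and 0.99. Non-cycling CD8 T cells after ConA thus held replication genes above the 1050 CPM of non-cycling Naïve cells.

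The 3 genes lower in members in all 3 libraries were *Fcer1g*, a signalling adaptor of NK and myeloid cells and some T cells (log2 ratios of -4.84, -2.44 and -1.76), the chemokine *Ccl5* of memory and effector cells (-3.33, -1.71 and -2.05), and *Mt1*, a metallothionein (-1.52, -1.29 and -1.25). *Fcer1g* is a gene of the NK list, whose sums are given above. In ConA+Veh, lists of myeloid genes also stood lower in members than in non-cycling cells. The neutrophil list was at 2.64 and 331 CPM, the macrophage list at 11.1 and 182 CPM, and the dendritic cell list at 127 and 887 CPM. In ConA+FICZ the neutrophil list was higher in members, at 162 and 9.51 CPM. The part of NK-type or myeloid cells in the values of *Fcer1g* was not tested. *Btg1*, which restrains proliferation, was next, with -1.28, -1.12 and -0.96. *Ccl5* stood at 89.1, 127 and 199 CPM in members and at 893, 417 and 822 CPM in non-cycling cells, where Naïve non-cycling cells held 2904 CPM. *Gzmb*, the killer protease granzyme B, stood at 658, 764 and 765 CPM in members and 897, 1155 and 1146 CPM in non-cycling cells.

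**Figure D3:**
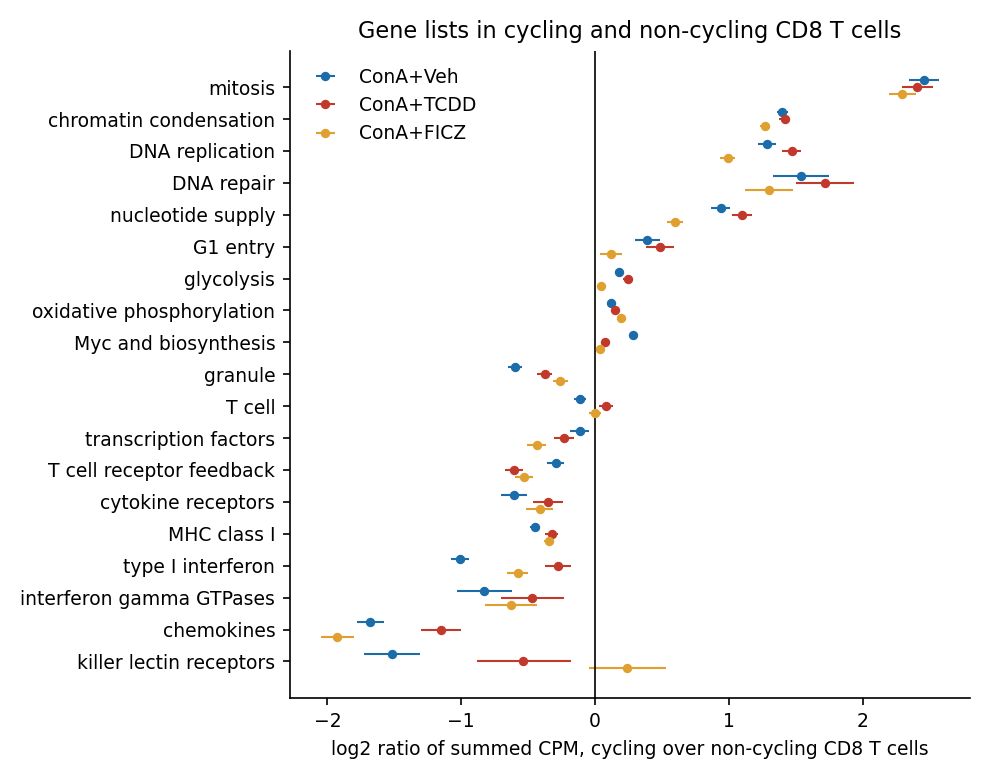
Log2 ratio of the summed CPM of 19 gene lists in cycling over non-cycling CD8 T cells (horizontal axis), by list (vertical axis), with 1 point per ConA library and bars for 95% counting intervals. The list of cycle genes of the rule and the marker lists of other cell types are not drawn. The T cell list, which is drawn, holds some lineage genes of the rule. Mitosis lies highest of the lists drawn, at 2.46 in ConA+Veh, 2.41 in ConA+TCDD and 2.30 in ConA+FICZ, and chemokines lie below 0, at -1.68, -1.15 and -1.93.

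Between ConA+TCDD and ConA+Veh, 4 genes of the mitosis list were at least 1.5-fold lower in the cycling cells of ConA+TCDD. A pair of libraries was compared over genes that reached 100 UMIs in their members together. Of 5214 such genes, 11 were at least 2-fold higher in ConA+TCDD (0.211%) and 18 at least 2-fold lower (0.345%). At 1.5-fold or more, 58 were higher (1.11%) and 119 lower (2.28%), and the median log2 ratio was 0.03. The 2-fold counts were 12 higher and 13 lower by the mean of each cell's CPM, and 13 and 11 by UMIs per cell with no correction for depth. The 7 genes of the rule chose the members, so their levels are a description. *Ccnb2* stood at 95.4 CPM in ConA+Veh, 47.5 in ConA+TCDD and 77.3 in ConA+FICZ, a log2 ratio of -1.01 (-1.33 to -0.69) for ConA+TCDD. *Ube2c*, with 406, 251 and 351 CPM, had -0.69 (-0.83 to -0.55). These were the only genes of the 7 past 1.5-fold. *Mki67* stood at 299 and 303 CPM in ConA+Veh and ConA+TCDD, *Top2a* at 559 and 563, and *Birc5* at 403 and 414.

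Of the 51 genes of the mitosis list with enough UMIs, 4 were at least 1.5-fold lower and none higher, with a median of -0.06. The 4 were *Cenpa*, the centromeric histone, at 143 and 78.0 CPM (-0.88, -1.13 to -0.63), *Ckap2*, a spindle protein (-0.73), *Cdc20*, the activator of the anaphase-promoting complex, at 56.1 and 35.3 CPM (-0.67, -1.06 to -0.29), and *Lockd*, a non-coding RNA (-0.62). The share of the list at least 1.5-fold lower, 4 of 51, stands beside 2.28% of all genes. *Hmmr* (-0.55) and *Plk1* (-0.40), a mitotic kinase, had intervals below 0, and *Ccnb1* (-0.10), *Ccna2* (-0.08) and *Aurkb* (0.12) had intervals that crossed 0. Of the 39 replication genes with enough UMIs, none was 1.5-fold apart in either direction, where the shares of all genes would give about 1, and their median was 0.08. *Pcna*, the sliding clamp, stood at 313 and 361 CPM, and *Mcm5* at 244 and 240 CPM.

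**Figure D4:**
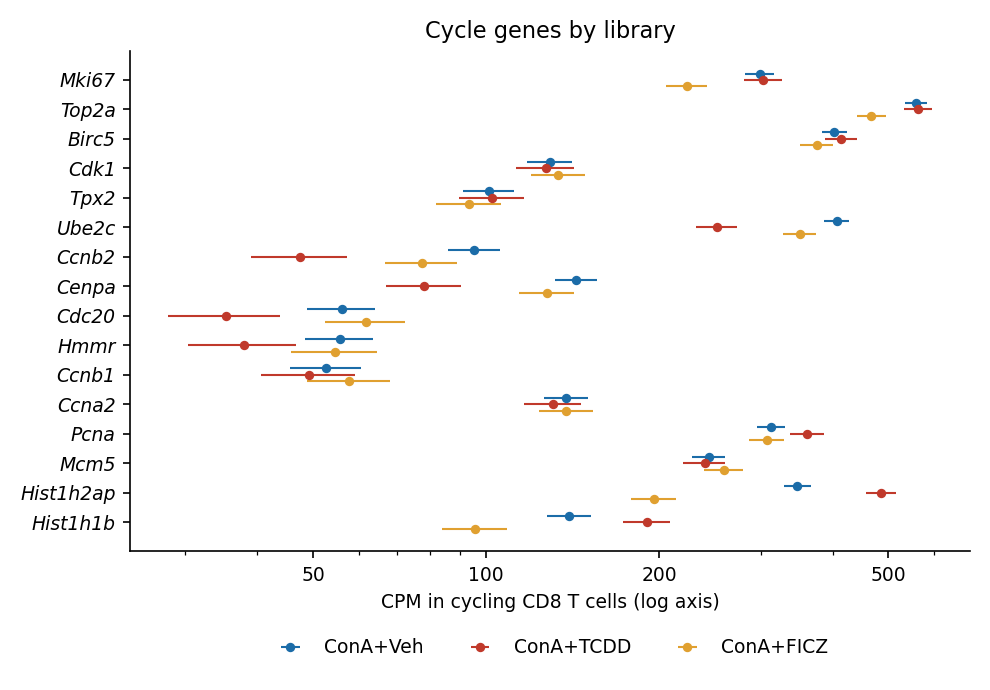
CPM of 16 cycle genes in cycling CD8 T cells (horizontal log axis) of ConA+Veh, ConA+TCDD and ConA+FICZ, with bars for 95% counting intervals. *Ccnb2* lies at 95.4, 47.5 and 77.3 CPM and *Hist1h2ap* at 347, 486 and 196 CPM, while *Mcm5* lies at 244, 240 and 259 CPM.

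Outside the cycle, the 10 genes highest in ConA+TCDD by the bound of the interval nearest 0 included *Elane* and *Prtn3*, which rested on 1 cell of each library. *AY036118*, a transcript over ribosomal RNA sequence, stood at 211 and 509.9 CPM (1.27, and 0.94 with the highest cell of each library left out). *Cldnd1*, a membrane protein of the claudin family, stood at 30.05 CPM in ConA+Veh and 80.6 in ConA+TCDD (log2 ratio 1.42, 1.08 to 1.77). *Hic1*, a transcriptional repressor, stood at 9.22 and 28.8 CPM (1.64, 1.03 to 2.28), *Mrps6* of the mitochondrial ribosome at 36.1 and 78.4 CPM (1.12), and *Dnph1*, a nucleotide hydrolase, at 29.5 and 60.1 CPM (1.03). *Ccr9*, the gut-homing chemokine receptor, stood at 30.6 and 61.9 CPM (1.02, and 0.92 with the highest cell of each library left out). It was the 1 gene at least 1.5-fold higher of 5 chemokine receptors tested, and 1 was lower, with a median of 0.01. Of all genes, 1.11% were higher and 2.28% lower. *Tnip3*, a partner of the NF-kB inhibitor A20, stood at 12.7 and 30.9 CPM (1.29). *Hic1* was found in 51 of 105 members of ConA+TCDD and 30 of 189 of ConA+Veh.

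*Gzma* (granzyme A), of the granule list, stood at 179 and 323 CPM (0.85, 0.70 to 0.9996), from 48 and 33 cells, and was the 1 gene of 12 granule genes past 1.5-fold, where 1.11% of all genes were higher and 2.28% lower. *Gzmb* stood at 658 and 764 CPM (0.21). *Prf1*, perforin, had 34.0 and 24.0 CPM (-0.50, -0.99 to -0.04).

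Among the 10 genes lowest in ConA+TCDD by the same order, 6 did not rest on 1 cell, *Ccnb2* and the 5 given here. The non-coding RNA *Gm42031* (chr8:85125872-85132289) stood at 89.9 and 31.4 CPM (-1.52, -1.91 to -1.15), *Dapl1* at 59.0 and 25.3 CPM (-1.22), *Rgs16*, which shortens G protein signals, at 23.5 and 7.84 CPM (-1.58), and *Ltb*, lymphotoxin beta, at 94.6 and 45.8 CPM (-1.05). *Ly6k* had 31.6 and 6.97 CPM (-2.18), from 31 and 7 cells. Of 14 homing and memory genes, 3 were at least 1.5-fold lower and none higher, among them *Dapl1* and *Ly6c2* (396 and 234 CPM, -0.76). Of 23 transcription factors, 3 were lower and none higher, beside 2.28% of all genes lower and 1.11% higher. They were *Tbx21* (T-bet, 34.5 and 18.3 CPM, -0.92), *Id3* (68.3 and 41.4 CPM, -0.72) and *Klf3* (-0.68). The chemokine receptor *Cxcr3*, a T-bet target, had -0.79 (-1.33 to -0.28).

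Class I antigen presentation genes leaned lower in ConA+TCDD as a list, with a median log2 ratio of -0.30 over 16 genes, and 2 of them were at least 1.5-fold lower, beside 2.28% of all genes. These were *Nlrc5*, the activator of class I genes (23.7 and 11.3 CPM, -1.07), and *H2-Q4* (-0.63), whose reads can be shared with its close paralogs. *H2-K1* had 719 and 551 CPM (-0.38, -0.48 to -0.29) and *B2m* 922 and 864 CPM (-0.09). Genes of the actin cytoskeleton and cell surface had a median of -0.24 over 23, with *Actb* at 7792 and 6362 CPM (-0.29). Of the 23, 1 was at least 1.5-fold higher (0.98) and 1 lower (-0.66), beside 1.11% and 2.28% of all genes. *Ctla4*, an inhibitory receptor, stood at 243 and 347 CPM (0.52), and *Hif1a*, the oxygen-sensing factor, at 188 and 272 CPM (0.53), both under 1.5-fold. Of 6 inhibitory receptors tested, none was 1.5-fold apart, and their median was -0.03. *Il10* stood at 13.4 and 22.7 CPM (0.75, 0.17 to 1.34). It was the 1 gene at least 1.5-fold higher of 4 cytokines tested, and 2 were lower, with a median of -0.56. Of all genes, 1.11% were higher and 2.28% lower. *Nfkbia*, the inhibitor of NF-kB, had 429 and 267 CPM (-0.69, -0.82 to -0.55).

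Between ConA+FICZ and ConA+Veh, genes that receptor signals induce were among those lower in ConA+FICZ, and genes of several other kinds were higher or lower. Of 5379 genes with enough UMIs, 15 were at least 2-fold higher (0.279%) and 26 at least 2-fold lower (0.483%). At 1.5-fold or more, 109 were higher (2.03%) and 130 lower (2.42%), and the median log2 ratio was 0.05. The 2-fold counts were 11 higher and 31 lower with the median ratio set to 1, and 50 and 13 by UMIs per cell with no correction for depth. The comparison shares the ConA+Veh library with the one above.

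Of 17 genes that T cell receptor signals induce, 4 were at least 1.5-fold lower in ConA+FICZ and none higher, with a median of -0.48, beside 2.42% of all genes lower and 2.03% higher. They were the nuclear receptors *Nr4a3* (41.9 and 17.9 CPM, -1.23, -1.74 to -0.74) and *Nr4a1* (87.8 and 51.0 CPM, -0.78), *Fosb* of AP-1 (-0.96) and the phosphatase *Dusp5* (-0.64). In ConA+TCDD over ConA+Veh the same list had 1 gene lower, *Nfkbia*, and 1 higher, *Rgs1* (0.62), with a median of -0.16. These counts stand beside 2.28% of all genes lower and 1.11% higher. With the highest cell of each library left out, *Rgs1* had 0.48, under 1.5-fold. In ConA+FICZ over ConA+Veh, 6 of 23 transcription factors were lower and none higher, beside 2.42% and 2.03% of all genes. Among the 6 were *Nr4a3*, counted above as well, *Myb* (56.9 and 29.9 CPM, -0.93), *Irf4* (-0.66) and *Bhlhe40* (-0.66). *Il2ra*, the alpha chain of the IL-2 receptor, had 71.7 and 43.4 CPM (-0.72), the costimulator *Icos* 91.2 and 58.2 CPM (-0.65), and *Rgs16* 23.5 and 5.58 CPM (-2.07). *Ier5l* stood at 25.8 and 8.37 CPM (-1.63) and *Vps37b*, of the ESCRT machinery, at 209 and 104 CPM (-0.9999).

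Of 15 glycolysis genes, 2 were at least 1.5-fold lower, beside 2.42% of all genes, namely *Hk2* (hexokinase 2, 48.5 and 25.5 CPM, -0.93) and *Slc16a3* (the lactate exporter, 24.2 and 9.56 CPM, -1.34), and the median was -0.10. The nuclear RNA *Malat1* stood at 1246 and 749 CPM (-0.73), and *Neat1* at 25.8 and 10.4 CPM (-1.32). These were the 2 genes at least 1.5-fold lower of 5 nuclear non-coding RNAs tested. None of the 5 was higher, and their median was -0.36. Higher in ConA+FICZ were *Cpox* of heme synthesis (24.0 and 61.4 CPM, 1.36), the GTPase *Irgm1* (11.1 and 29.5 CPM, 1.41) and the mitochondrial tRNA methyltransferase subunit *Trmt10c* (17.7 and 39.0 CPM, 1.14). So were the IL-27 receptor *Il27ra* (23.5 and 48.2 CPM, 1.04), *Cldnd1* (30.05 and 68.5 CPM, 1.19) and *Ddit4*, an inhibitor of mTOR (70.4 and 121 CPM, 0.78). *Ddit4* was the 1 gene at least 1.5-fold higher of 14 cold, metal and stress genes tested, and 1 was lower (-0.63). *Ccl5* stood at 89.1 and 199 CPM (1.16, 0.96 to 1.36), from 42 of 189 and 22 of 103 cells. It was the 1 gene at least 1.5-fold higher of 5 chemokines tested, and 4 were lower, with a median of -1.19. Of all genes, 2.03% were higher and 2.42% lower. *Ccl3* and *Ccl4*, among those lower, each had most of their ConA+Veh UMIs in 1 cell.

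The 7 genes of the rule, which chose the members, summed to 1992 CPM in ConA+Veh and 1720.3 in ConA+FICZ (-0.21, -0.27 to -0.16), with *Mki67* at 299 and 223 CPM and *Top2a* at 559 and 467 CPM. Of 52 mitosis genes with enough UMIs none was 1.5-fold apart, beside 2.03% of all genes higher and 2.42% lower, where these shares would give about 2, and their median was -0.03. Of 38 replication genes 1 was higher, *Ung*, which removes uracil from DNA (39.5 and 66.9 CPM, 0.76, 0.43 to 1.09), which is near the share of all genes, and the median was 0.11. The replication-dependent histone *Hist1h2ap* was lower, at 347 and 196 CPM (-0.83). Histone genes share sequence, so the split of UMIs between copies is uncertain.

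Between ConA+FICZ and ConA+TCDD, 3 histone genes were among the 10 lowest in ConA+FICZ by the bound of the interval nearest 0, and *Dapl1*, *Vim* and *Id3* were among the 10 highest. Of 4638 genes, 17 were at least 2-fold higher in ConA+FICZ (0.367%) and 15 at least 2-fold lower (0.323%), and at 1.5-fold or more 138 were higher (2.98%) and 110 lower (2.37%). The 2-fold counts were 15 higher and 25 lower by the mean of each cell's CPM, and 27 and 6 by UMIs per cell with no correction for depth. *Hist1h2ap* stood at 486 CPM in ConA+TCDD and 196 in ConA+FICZ (-1.31, -1.47 to -1.16), and the linker histones *Hist1h1d* at 74.1 and 30.3 CPM (-1.29) and *Hist1h1b* at 190 and 95.6 CPM (-0.99). Of 24 genes of the list of chromatin and condensation genes, which holds some histones, 2 were at least 1.5-fold lower, *Hist1h2ap* and *Hist1h1b*, and none higher, with a median of -0.03. Of 48 mitosis genes, 6 were at least 1.5-fold higher and 1 lower, with *Cdc20* at 0.81, *Cenpa* at 0.71 and *Plk1* at 0.69. *Hif1a* stood at 272 and 134 CPM (-1.02) and *Bhlhe40* at 90.2 and 41.8 CPM (-1.11). *Vim*, the intermediate filament vimentin, stood at 395 and 792 CPM (1.003, 0.89 to 1.12), *Dapl1* at 25.3 and 86.9 CPM (1.78), *Id3* at 41.4 and 89.2 CPM (1.11), and *Ly6c2* at 234 and 403 CPM (0.79). The transcripts *Gm42418* (chr17:39846958-39848788) and *AY036118* (chr17:39847113-39848035), which overlap each other and a ribosomal RNA sequence, had log2 ratios of -0.87 and -1.54, and 1 cell of ConA+TCDD held 22.9% of the *AY036118* UMIs there.

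**Figure D5:**
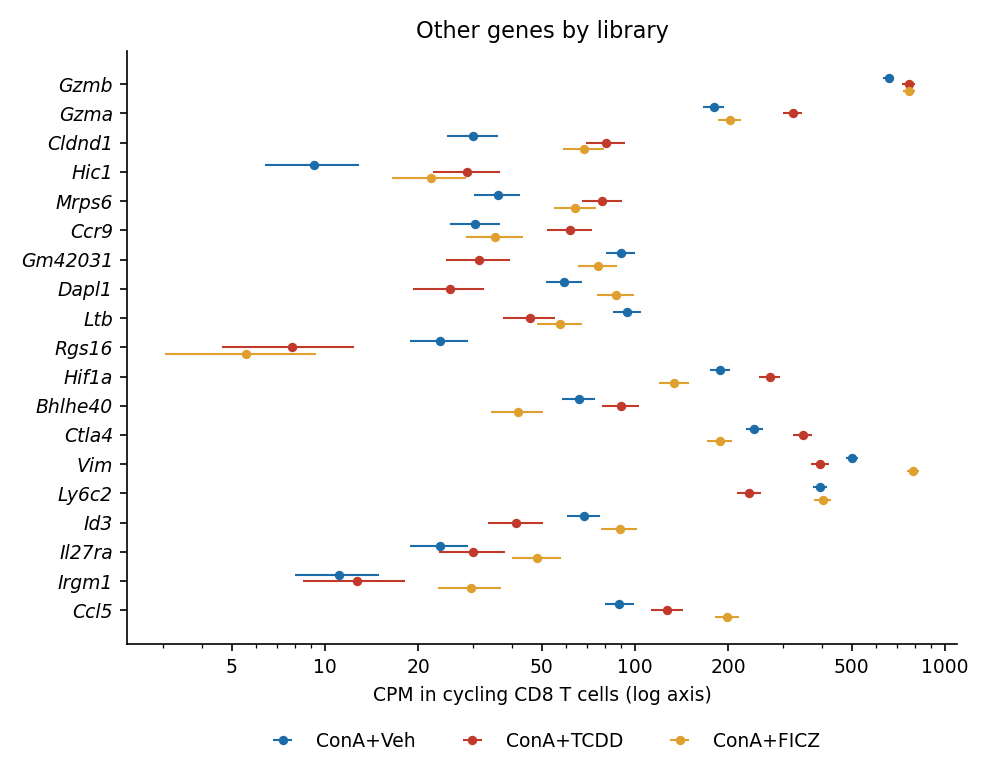
CPM of 19 genes outside the cycle in cycling CD8 T cells (horizontal log axis) of ConA+Veh, ConA+TCDD and ConA+FICZ, with bars for 95% counting intervals. *Cldnd1* lies at 30.05, 80.6 and 68.5 CPM, *Dapl1* at 59.0, 25.3 and 86.9 CPM, and *Ccl5* at 89.1, 127 and 199 CPM.

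The AhR target genes *Cyp1a1*, *Cyp1b1*, *Ahrr* and *Nqo1* were near 0 in the cycling cells of every ConA library. *Cyp1a1*, the classical AhR target, had 1, 1 and 0 UMIs in ConA+Veh, ConA+TCDD and ConA+FICZ, *Cyp1b1* 0, 0 and 1, the AhR repressor *Ahrr* 0, 1 and 0, and *Nqo1* 1, 3 and 0. *Ahr* itself stood at 23.7, 24.0 and 20.3 CPM. *Tiparp*, a target that limits AhR activity, had 51, 40 and 15 UMIs, or 13.4, 17.4 and 5.98 CPM, under the 100 UMIs asked of a pair. Of the 17 AhR pathway genes listed, 6 had enough UMIs in the first pair, and of these 1 was at least 1.5-fold higher, *Il10*, and none lower, beside 1.11% and 2.28% of all genes.

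Some of the widest differences rested on 1 or a few cells with genes of other cell types. *Elane*, *Prtn3* and *Mpo*, the granule genes of granulocyte progenitors, had 600 UMIs in ConA+Veh, of which 596 were in 1 member, 855 in ConA+TCDD, of which 851 were in 1 member, and 1 in ConA+FICZ. *S100a8* and *S100a9* of neutrophils had 6, 33 and 358 UMIs, with 28 and 267 in the highest cell of ConA+TCDD and ConA+FICZ and 348 in the 3 highest cells of ConA+FICZ. Without the highest cell of each library, their log2 ratios for ConA+FICZ over ConA+Veh were 5.12 (3.18 to 8.21) and 5.09 (3.15 to 8.18). The class II genes *H2-Aa*, *H2-Ab1* and *Cd74* of antigen-presenting cells had 467, 121 and 38 UMIs, with 382, 64 and 10 in the highest cell. Globins had 465, 61 and 107 UMIs, with 442, 6 and 107 in the highest cell. *Ccl3* had 229 UMIs in ConA+Veh, 200 of them in 1 cell, and its log2 ratio of -3.53 for ConA+TCDD over ConA+Veh was -0.96 with the highest cell of each library left out. *Ccl4* had 684 UMIs in ConA+Veh, 496 of them in 1 cell.

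Summed marker lists of other types also differed between libraries, some through single cells and some over many. The neutrophil list summed to 2.64 CPM in ConA+Veh, 16.1 in ConA+TCDD and 162 in ConA+FICZ. In the same order, the list of dendritic cells summed to 127, 55.4 and 15.1 CPM (mostly *Cd74*), the erythroid list to 129, 28.3 and 43.4 CPM, the hepatocyte list to 10.5, 20.5 and 66.9 CPM, and the macrophage list to 11.1, 6.10 and 11.6 CPM. The hepatocyte UMIs lay in 18.5%, 5.71% and 49.5% of members, and the erythroid UMIs in 12.2%, 40.0% and 0.971%. The B cell list stayed at 103, 102 and 110 CPM, mostly *Ighm*, which had a UMI in 68.8%, 74.3% and 72.8% of members. The part of droplets with 2 cells or of free RNA in these values was not tested.

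The cycling cells used many T cell receptors. A *Trbv* gene, the variable segment of the beta chain, was found in 172 of 189 members of ConA+Veh (91.0%), 94 of 105 of ConA+TCDD (89.5%) and 97 of 103 of ConA+FICZ (94.2%), with 21, 19 and 18 different segments as the leading one of a cell. The most frequent was *Trbv13-2* in ConA+Veh, in 18 cells (10.5%, 6.32 to 16.0%), *Trbv19* in ConA+TCDD, in 10 cells (10.6%, 5.22 to 18.7%), and *Trbv1*, *Trbv3* and *Trbv16* in ConA+FICZ, in 10 cells each (10.3%, 5.06 to 18.1%). In non-cycling cells the most frequent held 13%, 11% and 10.8%. No segment stood out beyond its counting interval from the next in its library. More than 1 segment was found in 36.0%, 33.0% and 35.1% of the members with a segment, and in 28%, 21% and 22.6% of such non-cycling cells. Close paralogs among the segments can share reads.

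Few barcodes occurred in more than 1 library. Between 4 and 15 barcodes were shared by any pair of libraries. 1 member barcode was shared, by ConA+Veh and ConA+TCDD, and its cells led with different receptor segments, *Trbv31* with 21 UMIs and *Trbv15* with 11 UMIs.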

How the data were processed

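Liver mononuclear cells of 4 groups, 1 library each, were measured with the 10x Genomics 5′ assay. The authors aligned reads to mm10 with Cell Ranger 3.0.2, and the deposited values are raw UMI counts for 31053 genes in each barcode, not normalized. The members and gene lists were chosen with earlier results of these data known.

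For each library, the UMIs of a gene in its members were added up and expressed per 1000000 UMIs of those cells (CPM). Shares have Clopper-Pearson intervals, levels exact Poisson intervals and ratios conditional exact binomial intervals. For a ratio of shares this is the interval of a ratio of Poisson rates. No log2 ratio was given where a gene had no UMI in a library. Genes were compared at 100 UMIs or more, without receptor segments. Named are the genes of the rule, genes of the lists and the 10 genes highest and lowest in each pair. The order in a pair was set by the bound of the interval nearest 0. For cycling over non-cycling cells the 20 highest and 10 lowest are named. *Vps37b* is named outside these sets. Thinning used seed 1. One gene was counted with its list but is not reported here. No doublet caller was run. The ratio of genes and its calls were tested on simulated Poisson counts of summed UMIs, with no spread between cells. Such counts follow the model of the interval, so the test cannot show how the interval holds for these cells. Ratios of shares were not simulated. Scripts ran on Python 3.11.15 with scipy 1.17.1, numpy 2.4.6, matplotlib 3.10.9 and pandas 2.3.3. Alternatives changed the depth of thinning, the rule, the scaling, the minimum of UMIs and the cells kept.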

Additional observations from a re-analysis of the deposited data

Results flagged for a closer look

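For 4 pairs of a gene and a comparison, the log2 ratio between libraries had opposite signs in cycling and non-cycling CD8 T cells, each past 2-fold. With 1 library per condition the differences were not tested. *Ifng* had -1.33 in cycling and 3.34 in non-cycling cells for ConA+TCDD over ConA+Veh, where 82 of the 98 UMIs of non-cycling ConA+TCDD cells were in 1 cell. *S100a8* had 6.36 in cycling and -5.83 in non-cycling cells, and *S100a9* 6.62 and -4.85, for ConA+FICZ over ConA+Veh. Of the 141 *S100a8* UMIs of non-cycling ConA+Veh cells 139 were in 1 cell, and 117 of the 163 UMIs of cycling ConA+FICZ cells were in 1 cell. *Ccl4* had -1.37 in cycling and 1.11 in non-cycling cells for ConA+FICZ over ConA+Veh, and 496 of the 684 UMIs of cycling ConA+Veh cells were in 1 cell. With the highest cell of each library left out, *Ifng* had -0.99 and 1.46, *S100a8* 5.12 and -0.28, *S100a9* 5.09 and 0.72, and *Ccl4* 0.21 and 0.91.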

How the results depend on the processing

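No paired analysis was possible because each condition has 1 library. Among alternative values for the shares, the counts of genes and the summed lists, 69 stayed near the main value and 36 moved. Alternatives that left out the highest cell of each gene, cells with genes of other types or cells over 40000 UMIs, and thinning to 5000 UMIs, were chosen after seeing the data. For the thinned share, ConA+FICZ over ConA+TCDD went from -0.46 to 0.65 when 4 or more of the 7 genes were asked for. The number of genes at least 2-fold apart was 29 for ConA+TCDD over ConA+Veh, and 14 at 200 UMIs or more and 74 at 50 or more. It was 41 for ConA+FICZ over ConA+Veh, and 16, 93 and, per cell with no correction for depth, 63. It was 32 for ConA+FICZ over ConA+TCDD, and 14, 96 and, without cells with genes of other types, 20. Per cell with no correction for depth, the median log2 ratio of all genes was 0.15, 0.33 and 0.18 in these 3 comparisons.

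For cycling over non-cycling cells, the 119 genes at least 2-fold higher became 2652 per cell with no correction for depth. The 3 lower genes became 7 with the median ratio set to 1, 18 by the mean of each cell's CPM, 10 against cells with none of the 7 genes and 0 per cell. In the same order, the log2 ratio of the replication list was 1.15, 1.47, 1.72 and 2.60 for ConA+Veh, 1.32, 1.70, 1.79 and 3.01 for ConA+TCDD, and 0.92, 1.43, 1.76 and 2.25 in ConA+FICZ. That of the mitosis list was 2.32, 2.25, 2.79 and 3.77 in ConA+Veh, 2.26, 2.65 and 3.95 in ConA+TCDD without the mean of each cell's CPM, and 2.49, 2.81 and 3.56 in ConA+FICZ without the median ratio. The cause was not tested beyond the construction of each alternative.

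Among alternative values for single genes, 668 stayed near the main value, 52 moved and 10 reversed. With the highest cell of each gene left out, *Ccl4* was 0.21 for ConA+FICZ over ConA+Veh, and *H2-Aa* 0.73, *H2-Ab1* 0.46 and *Hbb-bs* 1.64 for ConA+TCDD over ConA+Veh. Without cells with a UMI of *Trdc* or *Zbtb16*, *Elane* was -6.78 and *Prtn3* -6.45 for ConA+TCDD over ConA+Veh. Without cells with genes of other types, *Hbb-bs* was 1.23 for ConA+TCDD over ConA+Veh, *Prtn3* 0.57 and *S100a8* -0.43 for ConA+FICZ over ConA+Veh, and *S100a8* -1.44 for ConA+FICZ over ConA+TCDD. The comparison of genes between ConA+Veh and Naïve was not run, since Naïve had 1 member, and thinning to 2000 UMIs gave no share ratio over Naïve, which had no member left.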
